A study of Mus musculus with 12 samples.

Results

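The 6 inner hair cell (IHC) pools of postnatal day 0 (P0) mice are described here, out of 12 RNA-seq libraries from the organ of Corti. The other 6 libraries are pools of outer hair cells (OHCs), and each library was assigned by the cell type in its label. Cells of both groups were sorted from P0 cochleae labelled WT, in which GFP was driven by Atoh1 (Atoh1-GFP) and tdTomato (R26-TdTomato) was switched on by Cre made from the Insm1 locus (Insm1-GFP-Cre). Cells with GFP alone were collected as IHCs, and cells with both colors as OHCs, so the IHC gate rested on GFP without tdTomato. The cross joined homozygous R26-tdTomato males with females that carried Insm1-GFP/cre and Atoh1-GFP. Each pool holds cells of several pups, which were not sexed, and pup numbers per RNA pool are not given in the sources used here. Total RNA was depleted of ribosomal RNA, primed with random hexamers, amplified and read as 100 bp pairs. The pools are biological replicates by the methods, and no source says that an IHC and an OHC pool of one number share pups.

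IHCs turn the vibration of the organ of Corti into signals in the auditory nerve. Deflection of their hair bundle opens transduction channels, calcium enters through voltage-gated channels at the base of the cell, and glutamate-filled vesicles are released at ribbon synapses onto spiral ganglion neurons, with otoferlin as the calcium sensor of release. At birth these cells are not yet functional in hearing but already carry a bundle and immature synapses, receive transient efferent contacts, and have left the cell cycle.

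Counts on genes outside ribosomal RNA came to 13558176 in IHC pool 1 and to 23351046 to 27710056 in the other 5 IHC pools, against 21158524 to 29084110 in OHC pools. Levels are given as CPM, the counts outside ribosomal RNA scaled to one common library size after TMM scaling, and levels of different genes are compared only per kilobase of annotated exon (RPKM). IHC pool 1 stood apart from the other IHC pools. Ribosomal RNA, by annotation and symbol, took 56.9% of its gene counts against 21.5% to 37.0% in the other IHC pools, its TMM factor was 0.749 against 0.942 to 1.05, and of 7072 protein-coding genes at a mean of at least 20 CPM, 513 lay over 4-fold above the median of the other pools, against 28 to 151 for each other IHC pool (on CPM + 1). Those genes had a median GC content of 55.7% and a median transcript length of 2997 bases, against 49.9% and 4047.5 bases over all genes assessed. Results that this library moves are given with and without it. A gene with 0 counts in a pool may be present at up to 3 counts, which is 0.295 CPM in pool 1 and 0.106 to 0.137 CPM in the others, for counting error only.

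The 6 markers of IHCs and hair cells were present in every IHC pool. Otof (otoferlin) is at chr5:30524406-30619324 (-) on GRCm39, Slc17a8 (the vesicular glutamate transporter VGLUT3) at chr10:89409882-89457326 (-), Tbx2 (the T-box factor that sets IHC fate) at chr11:85723377-85734115 (+), Fgf8 (a secreted growth factor of IHCs) at chr19:45725237-45731354 (-), Myo7a (the unconventional myosin of the hair bundle) at chr7:97699069-97768734 (-) and Pou4f3 (a POU factor of all hair cells) at chr18:42527433-42530354 (+), by the GENCODE vM39 annotation. In edgeR's quasi-likelihood test of IHC against OHC pools over 13374 genes, 3.95% of genes were called higher in IHC pools and 2.46% higher in OHC pools at an adjusted p under 0.05, or 528 and 329 genes. These shares are the background for the edgeR calls in the lists below. The lists share members and are not separate results, as Otof and Slc17a8 stand in the marker, synapse and deafness lists. The balance between the directions depends on the tool and the filter, as DESeq2 called 1339 higher in IHC and 1589 higher in OHC pools, and without the filter on low counts edgeR called 893 and 961.

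Otof was counted at 2059 to 5570.0 CPM (median 3126) in IHC pools and 514 to 975 CPM (median 684) in OHC pools. Slc17a8 was at 251 to 407 CPM (median 311) against 2.03 to 52.5 CPM (median 15.3) in OHC pools. Tbx2 was at 113 to 367 CPM (median 188) against 5.64 to 19.2 CPM (median 6.90). Fgf8 was the least even of the markers, with 339.6 CPM in pool 1 against 37.5 to 133 CPM in the other 5, and 0.290 to 7.31 CPM (median 4.43) in OHC pools. For these 4 genes the IHC and OHC pools did not overlap, and the share of all genes without overlap is not given here. The 2 markers of all hair cells overlapped between the groups, with Myo7a at 747 to 1482 CPM (median 901) in IHC pools and 659 to 776 CPM (median 701) in OHC pools, and Pou4f3 at 826 to 1439.8 CPM (median 1138) and 637 to 1102 CPM (median 862).

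Of the 6 markers, 4 were called higher in IHC pools by that test: Otof (log2 fold change 2.25 ± 0.24 (SE), adjusted p = 6.02e-06), Slc17a8 (log2 fold change 3.98 ± 0.61 (SE), adjusted p = 4.03e-04), Tbx2 (log2 fold change 4.59 ± 0.40 (SE), adjusted p = 8.71e-07) and Fgf8 (log2 fold change 4.88 ± 0.73 (SE), adjusted p = 3.36e-04). Myo7a (log2 fold change 0.50 ± 0.19 (SE), adjusted p = 0.117) and Pou4f3 (log2 fold change 0.42 ± 0.19 (SE), adjusted p = 0.194) were not. Without IHC pool 1, where 3.63% of all genes tested were called higher in IHC pools and 2.92% higher in OHC pools, the same 4 were called, with an adjusted p for Fgf8 of 5.96e-04. Of 8 OHC markers, 7 were called higher in OHC pools. Insm1, the zinc-finger factor whose locus drives the tdTomato used in the sort, was at 0.0355 to 0.645 CPM (median 0.206) in IHC pools and 40.5 to 125 CPM (median 81.9) in OHC pools, and so is no independent check. Bcl11b, a zinc-finger factor, was at 0.0807 to 1.67 CPM (median 0.462) against 56.2 to 128 CPM (median 96.2), and Neurod6, a bHLH factor, had no more than 3 counts in any IHC pool against 14.0 to 56.1 CPM (median 36.9) in OHC pools. The exception was Ikzf2, the Helios factor of maturing OHCs, at 1.97 to 32.4 CPM (median 10.4) and 0.339 to 34.8 CPM (median 7.09) (log2 fold change 0.39 ± 0.91 (SE), adjusted p = 0.843). Prox1, a homeobox factor shared with supporting cells, reached 118 CPM in IHC pool 6 and 9.95 to 47.7 CPM in the other 5, below the 237 CPM of the lowest OHC pool.

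**Figure D1:**
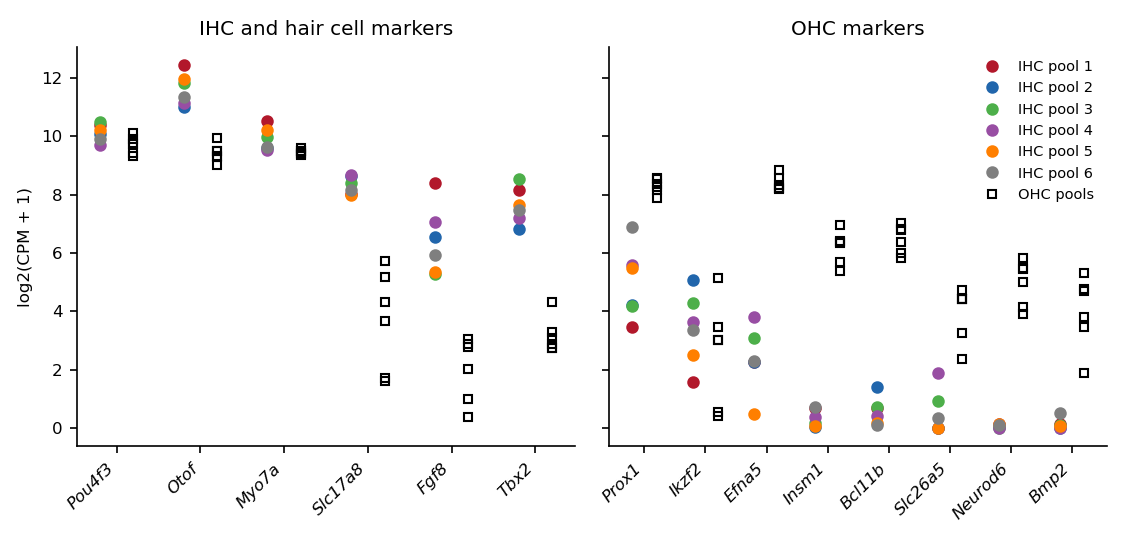
Level of the IHC and hair cell markers (left) and OHC markers (right) as log2(CPM + 1) in each pool, with filled circles for the 6 IHC pools, colored by pool, and open squares for the 6 OHC pools. The circles lie above the squares for Otof, Slc17a8, Tbx2 and Fgf8, overlap them for Myo7a, Pou4f3 and Ikzf2, and lie below them for the other 7 OHC markers.

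By gene class, messenger RNA of nuclear genes took most of the counts of each IHC pool. Nuclear protein-coding genes other than those of cytosolic ribosomal proteins and replication-dependent histones made up 91.6% ± 2.46 (SD, n = 6) of the counts outside ribosomal RNA. The protein-coding genes of the mitochondrial genome, which encode subunits of the respiratory chain, followed with 5.10% ± 1.68 and ranged from 3.08% in pool 3 to 7.13% in pool 1. Cytosolic ribosomal protein genes took 1.65% ± 0.558, lncRNA genes 0.761% ± 0.0959 and pseudogenes 0.293% ± 0.0481. Small and structural RNA genes took 1.13% in pool 1 and 0.0901% to 0.175% in the other 5 pools, and replication-dependent histone genes, whose messages lack a poly(A) tail and are made in S phase, 0.151% in pool 1 and 0.0325% to 0.0459% in the other 5.

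None of the 8 shares, with that of ribosomal RNA counted among them, differed from OHC pools beyond the spread between pools in a two-sided exact permutation test over all splits of the 12 pools into groups of 6. The smallest adjusted p over the 8 was 0.45, for lncRNA genes (0.974% ± 0.264 in OHC pools, SD, n = 6, exact p = 0.0563), and 0 of the 8 had an unadjusted p under 0.05. Mitochondrial protein-coding genes took 3.91% ± 0.836 in OHC pools (SD, n = 6, exact p = 0.16, adjusted p = 0.641), and ribosomal protein genes 1.90% ± 0.362 (SD, n = 6, exact p = 0.387, adjusted p = 0.825). The share of small and structural RNA genes was 0.285% ± 0.0690 in OHC pools (SD, n = 6, exact p = 0.998, adjusted p = 0.998). Without IHC pool 1 it was lower in IHC pools than in OHC pools by 0.148 percentage points (exact p = 0.00866, adjusted p = 0.0693).

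**Figure D2:**
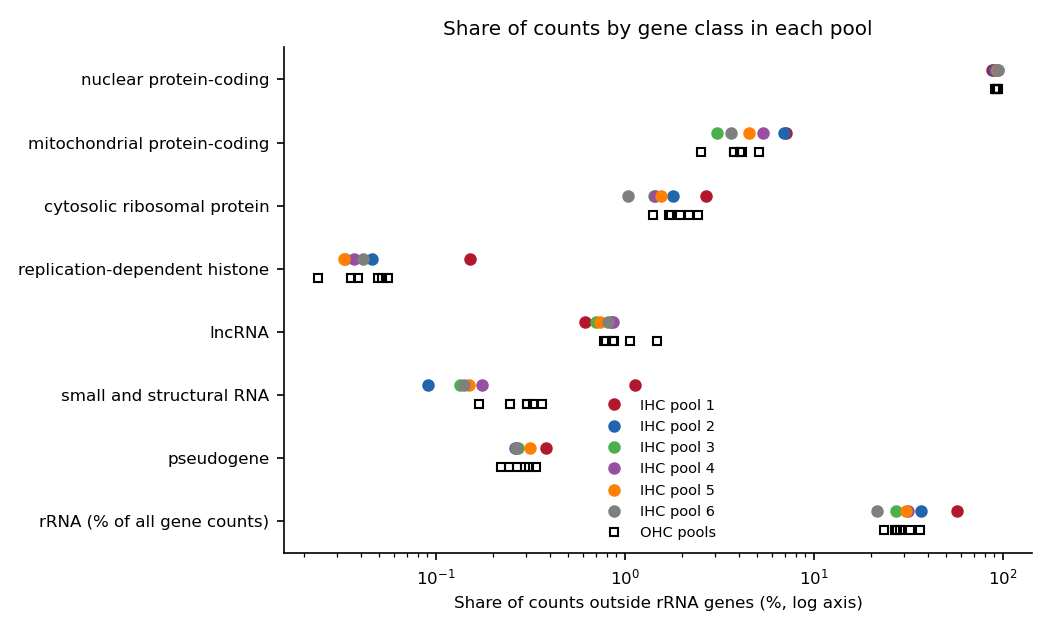
Share of counts by gene class in each pool, on a log axis, with filled circles for the 6 IHC pools, colored by pool, and open squares for the 6 OHC pools. Shares are of the counts outside ribosomal RNA genes, except the bottom row, which is of all gene counts. IHC pool 1 (red) is the highest pool for ribosomal RNA (56.9%), small and structural RNA (1.13%) and histone genes (0.151%).

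To compare the pools at one depth, each library was thinned to 13558176 counts, the size of the smallest. At this depth 16275 to 17569 genes had at least 1 count in an IHC pool (mean 16894 ± 449, SD, n = 6), of which 12663 to 13304 were nuclear protein-coding. The pools shared 12872 genes, 22464 were seen in at least 1 pool and 3461 in 1 pool only. Sharing differed by class. Of the nuclear protein-coding genes seen in any IHC pool, 11276 of 14905 were seen in all 6, while for lncRNA genes it was 565 of 2665, for pseudogenes 699 of 2991 and for small and structural RNA genes 24 of 432. Of the 87 cytosolic ribosomal protein genes, 84 were seen in all 6 pools.

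Fewer genes were seen in IHC pools than in OHC pools, which had 16888 to 19100 (mean 17976 ± 850, SD, n = 6). The difference was -1082 genes (two-sided exact permutation p = 0.0238, adjusted p over 2 measures = 0.0238), it was -1139 without IHC pool 1 (exact p = 0.0303), and the groups overlapped. With at least 5 counts asked of a gene it was -820.5 and did not pass (exact permutation p = 0.0931). Counts were also held by fewer genes. The most counted genes that together held 50% of the counts outside ribosomal RNA numbered 603 in IHC pool 1 and 811 to 871 in the other 5 IHC pools, against 833 to 988 in OHC pools (difference -108, exact permutation p = 0.0108, adjusted p = 0.0216, and -68.1 with exact p = 0.0216 without IHC pool 1). OHC pools also held the markers of endothelium described below. Read pairs on no annotated gene took 9.33% to 15.9% of all recorded pairs in IHC pools and 13.8% to 33.3% in OHC pools. They were highest in OHC pool 2 (33.3%), the pool with the most genes seen. Without that pool the difference in genes seen was -857 (exact permutation p = 0.0476). What either adds to the number of genes seen was not tested.

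Among nuclear protein-coding genes, genes of calcium signalling had some of the highest levels in IHC pools. Calm2, of a calcium sensor, was at 1184 to 2675 RPKM (median 1802), and Calm3, which encodes the same protein, at 189 to 868 RPKM (median 349). Pcp4, a small protein that binds that sensor, ranked 5 at 444 to 792 RPKM (median 712). Ranks rest on the median over the 6 pools per kilobase of the union of annotated exons. Of 15281 coding genes with a count in any IHC pool, 9097 were at a median of 1 RPKM or more, 3194 at 10 or more and 174 at 100 or more. The 30 highest held 4.70% to 7.23% of the counts outside ribosomal RNA, and the gene ranked 30, at 302.4 RPKM, was followed by one at 302.0 RPKM.

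Genes of the cytoskeleton were among the 30 as well. Actb (beta-actin, of the bundle and the cuticular plate) was at 583 to 2447 RPKM (median 815), Tuba1a (alpha-tubulin) at 499 to 703 RPKM (median 582) and Tubb4b (beta-tubulin) at 219 to 739 RPKM (median 373). Translation was represented by Rpl41 (545 RPKM, median as for those that follow), Eef1a1 (511 RPKM), Eef2 (485 RPKM) and Naca (310.2 RPKM), which encode a ribosomal protein, both elongation factors that act in each cycle of translation and a subunit of the nascent polypeptide complex. Respiration was represented by the nuclear genes Cox6a1 (430.2 RPKM) and Atp5f1b (302 RPKM), of cytochrome c oxidase and ATP synthase. Selenow (418 RPKM) and Selenom (353 RPKM) encode selenoproteins, and Ftl1 (624 RPKM) the ferritin light chain, which stores iron.

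With the exon union as the length, genes of hair cells stood among these widely expressed genes. Pou4f3 ranked 13 at 316 to 552 RPKM (median 436) and Otof 19 at 252 to 682 RPKM (median 382), near the elongation factor gene Eef2 at 371 to 1288 RPKM (median 485). Tnc (tenascin C) and Spock2 (testican 2), proteins of the extracellular matrix, were at 443 to 624.9 RPKM (median 582) and 203 to 408 RPKM (median 327). Nrep, a regulator of neuronal growth, was at 489.6 to 678 RPKM (median 591), and Nnat (neuronatin), which is imprinted, at 271 to 1797 RPKM (median 383). The remaining members of the 30 were Ccer2 (1032 RPKM), Tmem254 (393 RPKM), Lrrc10b (328 RPKM), the chaperone gene Hsp90ab1 (390.5 RPKM), the 14-3-3 gene Ywhae (380.2 RPKM), Psat1 of serine synthesis (375 RPKM), the splicing repressor gene Ptbp1 (337 RPKM) and Rprm, linked to arrest of the cell cycle (319 RPKM).

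Pools differed more for some of these genes than for others. Tnc (CV, the SD over the mean, 0.124), Nrep (0.103), Tuba1a (0.140), Pcp4 (0.196) and Pou4f3 (0.204) had similar levels in all 6 pools. Selenow was at 2278 CPM in pool 1 against 199.8 to 349 CPM in the other 5, Selenom at 3218 CPM in pool 1 against 261 to 668 CPM in the other 5, Cox6a1 at 1592 CPM in pool 1 against 214 to 352 CPM in the other 5, Ftl1 at 4473 CPM in pool 1 against 489 to 1340.0 CPM in the other 5 and Nnat at 3736 CPM in pool 1 against 563 to 1379.6 CPM in the other 5. The medians that set the ranks moved little with that pool, since 27 of the 30 genes remained among the 30 without it. Of the 30, 20 were also among the 30 highest of OHC pools.

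The choice of gene length mattered more. With the Ensembl canonical transcript as the length, 18 of the 30 genes remained, and 17 were among the 30 by exon union, longest and canonical transcript alike. Calm2, Ccer2, Actb, Pcp4, Ftl1, Nrep, Tnc, Tuba1a, Rpl41, Eef1a1, Eef2, Cox6a1, Hsp90ab1, Nnat, Psat1 and Atp5f1b were among these. Pou4f3 and Otof were not. Their medians by the canonical transcript were 442.7 and 435.5 RPKM, against 602.6 RPKM for Eef2. Some members share bases with other genes. In Ftl1 60.7% of 100-base windows of the transcript occur again elsewhere in the genome, in Tuba1a 47.7%, in Eef1a1 37.1%, in Tubb4b 29.9% and in Rpl41 18.4%, and their levels are uncertain. Exons of genes on the other strand cover 39.5% of the exon bases of Tuba1a, 34.9% of Hsp90ab1, 28.8% of Ccer2 and 26.5% of Ftl1, and the counting was not stated to use strand.

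**Figure D3:**
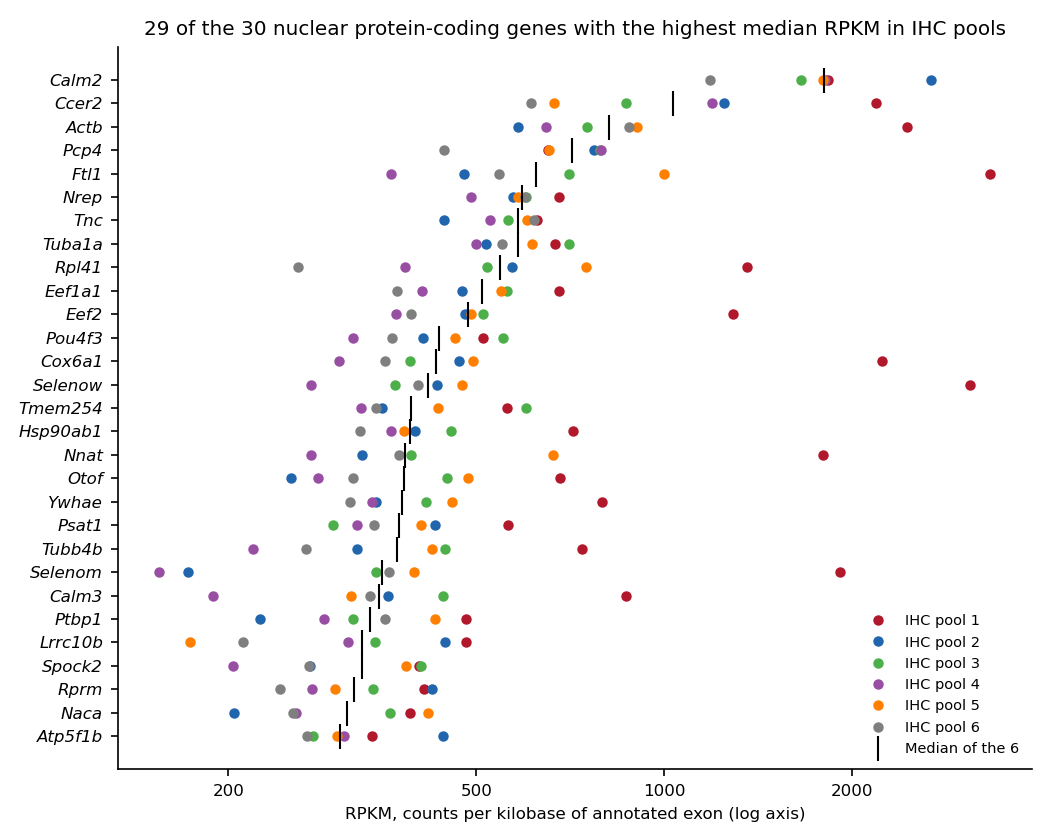
RPKM in each IHC pool (circles, colored by pool, log axis) of 29 of the 30 nuclear protein-coding genes with the highest median (vertical bars). Calm2 has the highest median of those shown, and IHC pool 1 (red) lies far to the right of the other 5 for Selenow, Selenom, Cox6a1, Ftl1 and Nnat.

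The mitochondrial genome gave 2 sets of values. Of its 13 protein-coding genes, 7 were among the most counted genes of the IHC pools. These were mt-Nd1 at 6859 to 21480 RPKM (median 10300), mt-Co1 at 5127 to 18500 RPKM (median 8796), mt-Cytb at 5887 to 15060 RPKM (median 8345), mt-Nd4, mt-Nd2 and mt-Nd5 at medians of 3812 RPKM, 3770 RPKM and 3740 RPKM, and mt-Nd6 at 1087 RPKM. The other 6 were at 23.5 RPKM or less, with mt-Co2 at 1.03 to 13.4 RPKM (median 2.29), mt-Co3 at 0.679 to 5.78 RPKM (median 1.54), mt-Nd4l at 2.22 RPKM, mt-Atp8 at 1.38 RPKM and mt-Nd3 with 1 count in each of 2 pools and 0 in the others. The proteins of mt-Co1, mt-Co2 and mt-Co3 are subunits of the same enzyme, cytochrome c oxidase.

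The low 6 were also the genes with the most sequence repeated in nuclear DNA. In mt-Co2, mt-Co3, mt-Atp6, mt-Atp8 and mt-Nd4l, 100% of 100-base windows, the length of 1 read, occur again base for base elsewhere in GRCm39, and in mt-Nd3 98.8%. In mt-Nd1, mt-Cytb, mt-Nd5 and mt-Nd6 0% do, in mt-Nd2 3.19%, in mt-Co1 30.8% and in mt-Nd4 60.8%. Chromosome 1 holds the most such windows of each of the 6. Reads placed at more than 1 site are kept apart by HTSeq in a line of their own, which took 6.03% to 14.7% of all recorded read pairs in IHC pools. The levels of these genes and of mt-Co1 and mt-Nd4, and the mitochondrial share above, are uncertain by what that line holds. Its part in them was not tested.

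**Figure D4:**
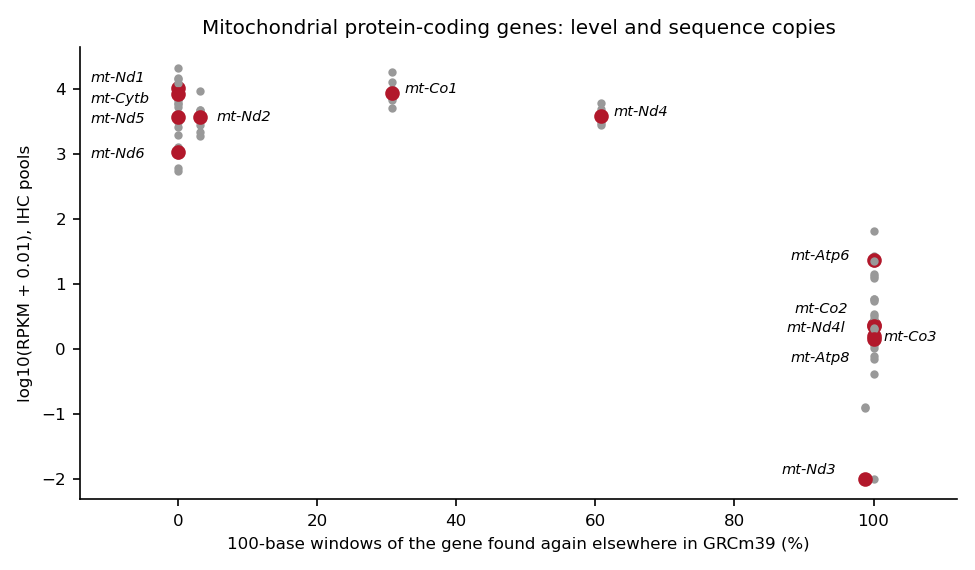
Level of the 13 mitochondrial protein-coding genes in IHC pools, as log10(RPKM + 0.01), against the percentage of 100-base windows of each gene that occur again elsewhere in GRCm39. Large red circles are medians of the 6 pools and small gray circles single pools. The 6 genes with 98.8% or more of such windows lie at the bottom right, and the 7 others have medians of 1087 RPKM or more.

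Outside ribosomal RNA and messenger RNA, the feature with the highest mean CPM over the 6 pools was the microRNA gene Mir6236 (at chr9:110110355-110110477 (+) on GRCm39). It was at 11186 CPM in pool 1 against 263 to 1104 CPM in the other 5, and at 1044 to 2653 CPM (median 2101) in OHC pools. The mean rests on pool 1, since the median of Mir6236 was 941 CPM over the 6 pools and 915 without pool 1, against 1083 and 1157 CPM for the lncRNA gene Malat1. The total RNA was fragmented and primed with random hexamers, and the counts are of read pairs over the locus, not of the mature microRNA. The mature sequence is printed with that of Mir6240, from RefSeq on GRCm38.p6 (chr9:110281353-110281371, + strand, and chr5:114851973-114851998, + strand), to show what is annotated at the 2 loci that stood out in pool 1. Capitals mark the seed (bases 2 to 8).
mmu-miR-6236: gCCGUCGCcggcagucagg
mmu-miR-6240: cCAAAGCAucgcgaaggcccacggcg
The seeds are not shared. Mir6240 was at 290.1 CPM in pool 1 against 23.4 to 58.7 CPM in the other 5. Pool 1, where both loci were highest, is also the pool with the highest share of ribosomal RNA. Lars2, which encodes the mitochondrial leucyl-tRNA synthetase, went the same way, with 25630 CPM in pool 1 against 869 to 2982 CPM in the other 5, as did the 57-base gene Gm55094, with 2699.6 CPM in pool 1 against 167 to 315 CPM in the other 5. The part of ribosomal RNA in these 4 values was not tested.

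Malat1, a nuclear RNA, was at 491 to 2359.8 CPM (median 1083) in IHC pools and 941 to 3989 CPM (median 1763) in OHC pools, with its lowest IHC value in pool 3 and its highest in pool 2. Oip5os1 was at 187 to 484 CPM (median 371). Rn7sk, the 7SK RNA that holds the elongation factor P-TEFb, was at 83.1 to 325 CPM (median 226), although 61.2% of its 100-base windows occur elsewhere. Xist, the RNA of the inactive X chromosome, was at 58.9 to 272 CPM (median 159). The remaining members of the 10 highest by mean CPM were the pseudogene Gm18589 at 67.5 to 201 CPM (median 135), Gm48230 and Gm10076, both with their highest level in pool 1 (423 and 411 CPM), and ENSMUSG00000118642, which has no entry in vM39, at 927 CPM in pool 1 against 50.8 to 289.7 CPM in the other 5. Of 16 structural and nuclear RNAs on a list made for this tissue, 13 matched the files, and Neat1, of paraspeckles, was at 9.36 CPM in pool 1 and 0 to 0.121 CPM in the other 5. Of the 9 tested, 0 were called by edgeR at an adjusted p under 0.05, 4 had an unadjusted p under 0.05, and DESeq2 called 2 of 11. The share of all genes at an unadjusted p under 0.05, or called by DESeq2, is not given here. Such counts, for this and later lists, therefore cannot be set against a background.

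Genes of the hair bundle were present throughout. All 29 of the list were at 1 CPM or more in every IHC pool, and their median level was 27.4 RPKM, against 2.07 RPKM over coding genes with a count in IHC pools. The highest after Actb were Myo6, the myosin that anchors the bundle, at 232 to 299 RPKM (median 273), Grxcr2, a glutaredoxin-like protein of the bundle, at 151 to 258 RPKM (median 229.7), and Cib2, a calcium-binding subunit of the transduction channel, at 142 to 309 RPKM (median 229). The transduction channel genes were lower, with Tmc2 at 14.8 to 27.3 RPKM (median 20.4) and Tmc1 at 1.95 to 12.6 RPKM (median 7.06), and Tmc2 was higher per kilobase than Tmc1 in 6 of 6 pools. Tip-link genes Cdh23 and Pcdh15 were at 27.4 RPKM and 16.8 RPKM. The lowest of the list per kilobase of the exon union were Eps8 and Whrn, of the stereocilium tip, at 2.40 RPKM and 1.33 RPKM. The order within the list rests on that length, and Eps8 had a mean of 37.8 CPM. The median log2 fold change of the list, IHC over OHC, was 0.08 against 0.05 over all genes tested. Of the 29 tested, 3 were called higher in IHC pools and 4 higher in OHC pools, with and without IHC pool 1. The shares over all genes were 3.95% and 2.46% with all pools. Espn (espin, an actin bundler, log2 fold change 1.67 ± 0.28 (SE), adjusted p = 9.34e-04) and Myo3a (the myosin that carries espin 1, log2 fold change -1.53 ± 0.22 (SE), adjusted p = 2.79e-04) were called in opposite directions.

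Of the 19 ribbon synapse genes, 18 were at 1 CPM or more in every IHC pool. Otof stood far above the others. Next per kilobase of the exon union were Syt7, a synaptotagmin, at 49.5 to 104 RPKM (median 64.7), Slc17a8 at 51.0 to 82.4 RPKM (median 63.2) and Vamp2, a vesicle SNARE, at 23.8 to 46.1 RPKM (median 39.9). Cacna1d, the pore of the calcium channel that triggers release, was at 29.7 to 41.4 RPKM (median 36.7), its beta subunit gene Cacnb2 at 26.9 to 32.3 RPKM (median 28.9), and Ctbp2, whose locus encodes the ribbon protein RIBEYE, at 21.8 to 68.6 RPKM (median 28.1). The scaffold genes Bsn and Pclo were at 9.23 RPKM and 8.76 RPKM. This order depends on the gene length used, since Cacnb2 had a median of 79.97 RPKM by its canonical transcript. Cabp4, a calcium sensor of the channel, was at 0 to 0.666 CPM, near the limit of detection, while Cabp2 was at 24.7 to 52.3 CPM (median 40.2). The median log2 fold change of the list, IHC over OHC, was 0.45. Of the 18 tested, 6 were called higher in IHC pools (Otof, Slc17a8, Cabp2, Ctbp2, Snap25 and Cacna2d2) and 0 higher in OHC pools. The shares over all genes tested were 3.95% and 2.46%. Cabp2 lost its call without IHC pool 1 (adjusted p = 0.0578).

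Calcium-handling genes had a median level of 72.1 RPKM. Beside Calm2 and Calm3, S100a1 was at 161 to 342 RPKM (median 284), Pvalb (parvalbumin) at 47.8 to 162 RPKM (median 105), Calb2 (calretinin) at 42.1 to 107 RPKM (median 69.5) and Calb1 (calbindin) at 49.5 to 115 RPKM (median 60.8), and all 4 are calcium buffers or sensors. For S100a1, 89.2% of exon bases lie under exons of the other strand, and its level is uncertain. The exchanger gene Slc8a1 and the pump gene Atp2b1 were at 75.6 RPKM and 74.7 RPKM. Ocm (oncomodulin), the buffer of mature OHCs, was at 0 to 1.03 CPM and Chp2 had 0 counts. The median log2 fold change of the list, IHC over OHC, was 0.57. Of the 12 tested, 5 were called higher in IHC pools, 6 with Atp2b1 added without IHC pool 1, and 0 higher in OHC pools. With all pools, 3.95% of all genes tested were called higher in IHC pools and 2.46% higher in OHC pools. The largest was Atp2a3, the SERCA3 pump, at 144 to 326 CPM (median 215) in IHC pools and 1.44 to 25.6 CPM (median 9.001) in OHC pools (log2 fold change 4.34 ± 0.62 (SE), adjusted p = 2.22e-04).

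Among transcription factors, Pou4f3 was followed by Nhlh1 (148 to 389 RPKM (median 200.4)) and Atoh1 (155 to 384 RPKM (median 195)). Atoh1, whose product starts hair cell differentiation and whose allele carries the GFP of the sort, overlapped Nhlh1 in range. Eya1, a transcriptional coactivator, was at 108 RPKM, Gfi1, a repressor needed for hair cell survival, at 82.2 RPKM, and Barhl1 at 83.9 RPKM. Of the 18, 17 were at 1 CPM or more in every IHC pool, the exception being Insm1. Of the 18 tested, 3 were called higher in IHC pools, Tbx2 and Gfi1 among them, and Insm1 was called higher in OHC pools. The shares over all genes tested were 3.95% and 2.46%.

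Muscle-type acetylcholine receptor genes were the highest of the cholinergic subunits. Chrng, the gamma subunit of the fetal muscle receptor, was at 81.9 to 151 RPKM (median 102) and Chrna1 at 60.0 to 125 RPKM (median 68.3), beside the subunits of the efferent receptor of hair cells, Chrna9 at 40.2 to 94.7 RPKM (median 65.3) and Chrna10 at 23.0 to 69.1 RPKM (median 39.7). Other subunits of the muscle receptor were low, with Chrnb1 at 4.64 RPKM, Chrnd at 0 to 1.64 CPM, and Chrne at 0.444 CPM in pool 6 and 0 in the others. Chrng (log2 fold change 2.10 ± 0.21 (SE), adjusted p = 3.76e-06) and Chrna1 (log2 fold change 2.63 ± 0.27 (SE), adjusted p = 3.76e-06) were the 2 of 5 tested that were called, both higher in IHC pools, while Chrna9 (log2 fold change 0.59 ± 0.27 (SE), adjusted p = 0.201) and Chrna10 (log2 fold change -0.07 ± 0.30 (SE), adjusted p = 0.915) were not. In Chrna10, 72.7% of exon bases lie under exons of the other strand.

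Of 27 deafness genes outside the bundle, 23 were at 1 CPM or more in every IHC pool, and Coch, Pou3f4, Kcne1 and Slc26a4 were not. After Otof, the highest were Gipc3, a PDZ protein, at 184 to 568 RPKM (median 264), Pjvk (pejvakin) at 89.7 to 154 RPKM (median 141), and Tecta, of the tectorial membrane, at 117 to 213 RPKM (median 132). Kcne1 and Slc26a4, of marginal and non-sensory epithelial cells, had no more than 3 counts in any IHC pool. The median log2 fold change of the list, IHC over OHC, was 0.46. Of the 25 tested, 7 were called higher in IHC pools (Otof, Gipc3, Tecta, Gjb2, Slc17a8, Otog and Synj2) and 0 higher in OHC pools, with and without IHC pool 1. The shares over all genes were 3.95% and 2.46% with all pools. Tecta, Gjb2 and Otog are known for expression in the neighbouring non-sensory cells.

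Markers of those neighbours were measured as well. The 14 supporting cell markers summed to 687 to 1406 CPM in IHC pools and 316 to 816 CPM in OHC pools, and 3 (Gjb2, Sox2 and Heyl) were called higher in IHC pools, and 4 without IHC pool 1, with Fabp7. With all pools, 3.95% of all genes tested were called higher in IHC pools. Gjb2, a gap junction gene of supporting cells, was at 119 to 673 CPM (median 279) and highest in pool 5. Sox2 was at 44.8 to 151 CPM (median 111), and 59.9% of its exon bases lie under exons of the other strand. Fgfr3, of pillar and Deiters' cells, was at 2.13 to 109 CPM (median 8.60) and highest in pool 6. The 6 markers of the greater epithelial ridge, the epithelium beside the IHCs, summed to 825 to 2189 CPM (median 977) in IHC pools and 648 to 1225 CPM (median 961) in OHC pools. In IHC pools they were led by Clu and Tectb, with Epyc and Crabp1 at 0 in some pools. Of the 4 ridge markers tested, 1 was called higher in IHC pools. The 8 mesenchyme markers summed to 167 to 534 CPM in IHC pools, mostly Col2a1 at 103 to 477 CPM (median 329.5), and to 99.4 to 291 CPM in OHC pools. Of these, 0 of 7 tested were called by edgeR (3 at an unadjusted p under 0.05, and DESeq2 called 1 of 8), with Col2a1 called without IHC pool 1. Pool 5 had the highest IHC sum of the supporting cell, ridge and mesenchyme markers alike. Pools hold mixed cells in unknown shares, and more such cells cannot be told apart from more RNA per cell. The part of these cells in the calls of Tecta, Gjb2 and Otog was not tested.

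Markers of erythroid cells and endothelium were close to 0 in IHC pools, and those of macrophages were low. Of 7 erythroid genes, the 5 globin genes had 0 counts in all 6 IHC pools, and Alas2 was at 0.0910 CPM in pool 5 only. Of 6 macrophage genes, C1qa, Cx3cr1 and Tyrobp had 0 counts, and C1qb, at 2.21 to 29.4 CPM (median 8.64), was the only one seen in all 6 pools. The 6 summed to 2.59 to 29.45 CPM in IHC pools and 0.126 to 7.94 CPM in OHC pools. Of the 1 tested, 0 were called by edgeR, 1 had an unadjusted p under 0.05, and DESeq2 called 1 of 1. Of 7 endothelial genes, Cldn5, Ptprb and Adgrf5 had 0 counts in all IHC pools, the list summed to 0.121 to 4.73 CPM in IHC pools and 33.9 to 331 CPM in OHC pools, and all 7 were called higher in OHC pools. The 4 melanocyte markers summed to 0 to 3.94 CPM, almost all of it Pmel in pool 2. Glial markers were not all low. The 6 of the list summed to 242 to 438 CPM in IHC pools and 90.4 to 197 CPM in OHC pools. Of the 4 tested, 1 was called higher in IHC pools, with and without IHC pool 1, and 0 higher in OHC pools. Cnp was at 171 to 379 CPM (median 254) in IHC pools, while Foxd3 had no more than 3 counts in any IHC pool.

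Neuronal intermediate filament genes were high. Nefl was at 439 to 769 CPM (median 696) in IHC pools and 102 to 216 CPM (median 158) in OHC pools (log2 fold change 2.04 ± 0.23 (SE), adjusted p = 1.49e-05). Nefm was at 758 to 1784 CPM (median 1012) in IHC pools and 184 to 446 CPM (median 300.2) in OHC pools (log2 fold change 1.89 ± 0.25 (SE), adjusted p = 8.53e-05). Of 5 genes of the spiral ganglion list tested, 3 were called higher in IHC pools, with and without pool 1, and 0 higher in OHC pools. Prph and Neurod1, of these neurons, were near 0. Prph had no more than 3 counts in any IHC pool, and Neurod1 was at 0 to 0.492 CPM. Ntrk3, a neurotrophin receptor gene, was at 0.390 to 24.3 CPM (median 6.61) (log2 fold change 5.06 ± 1.10 (SE), adjusted p = 0.00841), and Isl1, which hair cells share with neurons, at 45.1 to 153 CPM (median 81.7). Exons of the other strand cover 33.6% of the exon bases of Nefl and 38.2% of those of Nefm.

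Genes of division were near the limit of detection. Cdk1, Aurkb and Bub1 had 0 counts in all IHC pools, Ccnb1 was seen in pool 5 only (1.501 CPM), and Mki67 was at 0 to 6.91 CPM (median 0.283), highest in pool 5. Inhibitors of the cycle were expressed, with Cdkn2d (p19) at 107 to 274 RPKM (median 152) and rank 98 among coding genes, and Cdkn1b (p27) at 10.1 to 20.4 RPKM (median 17.6). Replication genes were uneven, with Pcna at 15.1 to 75.7 CPM (median 21.9) and Mcm5 at 0 to 13.6 CPM (median 0.256). Of 7 tested, Cdkn2d was called higher in IHC pools (log2 fold change 0.98 ± 0.25 (SE), adjusted p = 0.0212) and 0 higher in OHC pools, and without IHC pool 1 Ccna2 was called higher in OHC pools.

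Immediate early and heat shock genes, which are known to respond to tissue dissociation, were uneven. Egr1 was at 213 to 536 CPM (median 353) and Hspa8 at 565 to 858 CPM (median 714), in all pools. Fos was at 123 CPM in pool 1 against 9.91 to 25.8 CPM in the other 5, and Junb at 237 CPM in pool 1 against 2.32 to 11.6 CPM in the other 5. Fosb was at 32.6 and 34.9 CPM in pools 3 and 6 and no higher than 2.89 CPM in the others. Jun, by contrast, was lowest in pool 1 (3.05 CPM against 10.2 to 37.1 CPM). Of the 14 tested, Junb alone was called, higher in IHC pools (log2 fold change 4.50 ± 1.15 (SE), adjusted p = 0.0219), and it was not called without IHC pool 1 (adjusted p = 0.344).

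Every IHC pool held RNA of both sexes. Xist was at 58.9 CPM or more in each, and the 4 Y-linked genes Uty (4.32 to 36.3 CPM (median 18.9)), Ddx3y (0.735 to 50.6 CPM (median 11.8)), Eif2s3y (5.37 to 40.8 CPM (median 13.1)) and Kdm5d (6.80 to 43.2 CPM (median 18.5)) were counted in each. Pools 1, 3 and 5 had the lower Uty levels, 4.32 to 9.17 CPM, and pools 2, 4 and 6 28.6 to 36.3 CPM. Of the 5 sex-linked genes tested, 0 were called by edgeR, 0 at an unadjusted p under 0.05, and 0 by DESeq2. Of 16 imprinted genes, Nnat was followed by the growth inhibitor Cdkn1c (52.6 to 89.6 RPKM (median 73.5)) and by Peg10 (24.8 to 50.7 RPKM (median 33.3)), whereas the genes of the Dlk1 to Meg3 cluster were almost absent, with Meg3 at 0 to 1.63 CPM and Dlk1 with no more than 3 counts in any pool. Igf2, a fetal growth factor, was at 0.0403 to 2.95 CPM (median 0.299). Of the 11 imprinted genes tested, 0 were called by edgeR, 3 had an unadjusted p under 0.05, and DESeq2 called 2 of 13.

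Genes often used as references were not equally even. Of 17 on the list, 16 matched the files. Eef1a1 (CV 0.220), Tuba1a (0.140) and Ywhaz (0.216) varied less than the median coding gene at 20 CPM or more (0.450), and so did Gapdh (0.282), while Tbp (0.801) and Gusb (0.754) varied more. Actb had a CV of 0.679 over the 6 pools and 0.187 without pool 1, where the median was 0.380. Of the 16 tested, Tuba1a, Gapdh and Tuba1b were called higher in IHC pools, with Tuba1b not called without IHC pool 1 (adjusted p = 0.0585). With all pools, 3.95% of all genes tested were called higher in IHC pools.

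The 10 steadiest coding genes had levels in the 6 IHC pools that lay within 1.255-fold of each other. They were Rsbn1, the kinase gene Hipk3, Plekhb1, Ythdf3 (a reader of methylated adenosine in RNA), Fndc3a, Sec24a (of the coat of vesicles that leave the endoplasmic reticulum), Btbd7, Eif4g1 (a scaffold of translation initiation), the calcium channel subunit gene Cacnb2 and Smpd4 (a sphingomyelinase). Hipk3 was at 960.4 to 1156 CPM (median 1027), Cacnb2 at 394 to 472 CPM (median 423) and Eif4g1 at 152 to 191 CPM (median 168). Their CV ranged from 0.0638 to 0.0771, against a median of 0.450 over 7072 coding genes with a mean of at least 20 CPM, of which 154 had a CV of 0.15 or less. The CV chose these genes and so is a description. In the OHC pools, which had no part in the choice, the same 10 had CVs of 0.0742 to 0.368 (median 0.182), against a median of 0.341 over all genes assessed. Which 10 genes lead depends on each pool, since 2 to 4 of them remained when 1 IHC pool was left out.

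The 10 most variable coding genes were each high in 1 pool. Dnah17, an axonemal dynein gene, was at 154 CPM in pool 1 against 0.284 to 0.962 CPM in the other 5. Pool 1 was also the highest for the DNA repair gene Ogg1 (133 CPM against a median of 0.637), Alg12 of protein glycosylation (131 against 3.59), the receptor gene Lpar2 (285 against 5.47), Ntpcr (117 against 2.63), Prpf40b (373 against 12.9) and Junb. Pool 5 was the highest for Ext2, of heparan sulfate synthesis (4216 CPM against 77.3 to 150.1 CPM in the others), and for Xylb, a xylulokinase (124 CPM against 0.565 to 2.37 CPM). Wnt7a, a secreted ligand, was at 117 CPM in pool 2 and 1.33 to 4.88 CPM in the others.

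Among the 200 most variable coding genes, 151 were highest in pool 1 and 28 in pool 5. Without pool 1, 52 of them remained among the 200 most variable, and 96 of the new 200 were highest in pool 5. The 10 most variable then were Xylb, Ext2, Wnt7a, Trpc5, Ccdc87, Cnmd, Selenop, Aars2, Kif1c and Eml3, of which 8 were highest in pool 5. Ccdc87, for one, was at 837 CPM in pool 5 and 10.5 to 42.3 CPM in the others. The median CV was 0.450 with pool 1 and 0.380 without it, and 456 genes had a CV of 1 or more with it and 160 without it. OHC pools had a median CV of 0.341 over the same genes, with 145 at 1 or more. A gene's CV was higher in IHC than in OHC pools for 70.7% of genes, and for 59.1% without IHC pool 1. Genes entered by their mean in IHC pools alone, so 1 high IHC pool could bring a gene in. This filter favors a higher CV in IHC pools, so the comparison cannot show that IHC pools vary more.

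Genes that varied among IHC pools also tended to have a higher CV among OHC pools. Genes entered by their mean in IHC pools alone, so a gene brought in by a high IHC pool could be low in OHC pools. Among the most variable genes, the mean in OHC pools was 1.97 CPM for Junb, 3.09 CPM for Dnah17 and 47.7 CPM for Ext2. Level in OHC pools was not matched, so the values that follow cannot separate shared spread from low level. The part of level in them was not tested. The 200 steadiest had a median CV of 0.207 in OHC pools and the 200 most variable 0.606, and over all genes assessed Spearman's rho of the 2 CVs was 0.451 (0.451 without IHC pool 1), across genes, which are not independent and share the same libraries. The steadiest 200 genes had longer transcripts of lower GC content (medians 5012.5 bases and 47.6%) than the most variable 200 (3168 bases and 55.2%). Of these most variable 200, 151 were highest in pool 1. The 200 most variable without pool 1 had medians of 3709 bases and 53.4%, against 4047.5 bases and 49.9% over all genes assessed with it. The part of length and GC content in the spread was not tested.

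**Figure D5:**
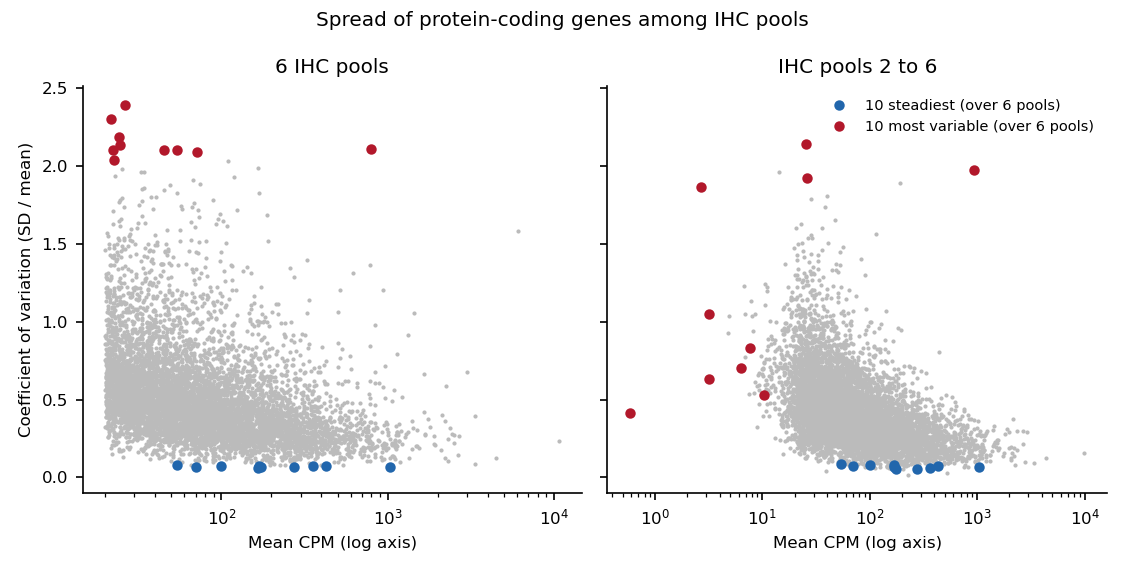
Coefficient of variation (SD over mean) against mean CPM (log axis) for each coding gene with a mean of at least 20 CPM, over all 6 IHC pools (left) and over pools 2 to 6 (right). Blue circles are the 10 steadiest and red circles the 10 most variable genes over 6 pools. On the right, 7 of the red circles move to a mean under 20 CPM, while those of Xylb, Ext2 and Wnt7a stay at the top.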

How the data were processed

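Total RNA of 6 IHC and 6 OHC pools was sequenced as rRNA-depleted, amplified libraries. The authors deposited raw HTSeq counts per gene (intersection-nonempty mode) for GRCm39 with GENCODE vM27, after trimming with Trimmomatic and 2-pass alignment with STAR. How strand was treated and which tool versions ran is not given in the sources used here. The 5 HTSeq summary lines, 24.2% to 43.4% of the recorded pairs in IHC pools, and rRNA genes were left out of library sizes and tests.

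Biotypes, exon lengths and coordinates came from GENCODE vM39, which holds 98.8% of the genes in the files. The genes outside it took at most 0.0861% of the counts outside rRNA. Python 3.11.15, numpy 2.4.6, pandas 2.3.3, scipy 1.17.1, R 4.3.3, edgeR 4.0.16, limma 3.58.1 and DESeq2 1.42.0 were used. IHC and OHC pools were compared with the quasi-likelihood test of edgeR (p adjusted by Benjamini and Hochberg) on genes with at least 10 counts by filterByExpr, and shares and gene numbers by exact two-sided permutation tests over pools. Scripts were tested on simulated data. P-values measure the spread between these pools.

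The members and gene lists were chosen with earlier results of these data known. Genes named are the 30 nuclear protein-coding genes highest by median RPKM, the 10 non-coding genes highest by mean CPM, the 10 steadiest and 10 most variable by CV at a mean of at least 20 CPM, the markers, and up to 4 members per list with the highest median RPKM. Other list members were chosen after their values were seen. Some genes that meet the rule are not reported here. Alternatives were another normalization, filter, length, test and each pool left out.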

Additional observations from a re-analysis of the deposited data

Results flagged for a closer look

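Of 98 sets of 6 IHC values, 35 held a pool whose gap to its nearest neighbour exceeded 0.625 of the range of the 6 (Dixon's criterion). For normally distributed values, chance passes it in about 1 of 20 sets. The values here were not log-scaled and all sets share the same 6 libraries, so 35 of 98 cannot be set against that rate. In 29 of the 35 this was IHC pool 1. The sets include the 10 most variable genes, which were chosen for their spread and all 10 of which passed.

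Pool 1 was the highest for replication-dependent histone genes (0.1515% of counts, median 0.0389%) and small and structural RNA genes (1.13%, median 0.144%), and the lowest for the number of genes that held 50% of the counts (603, median 831.5). Among the 30 most abundant genes it was the highest for Actb at 7151 CPM (median 2383), Ftl1 at 4473 CPM (median 836), Eef2 at 4944 CPM (median 1861), Cox6a1 at 1592 CPM (median 306), Selenow at 2278 CPM (median 308), Hsp90ab1 at 3861 CPM (median 2109), Nnat at 3736 CPM (median 797), Ywhae at 3807 CPM (median 1824), Selenom at 3218 CPM (median 594) and Calm3 at 2258 CPM (median 909). Among mitochondrial genes it was the highest for mt-Atp6 at 43.6 CPM (median 15.99), mt-Nd4l at 6.70 CPM (median 0.658) and mt-Atp8 at 2.46 CPM (median 0.282), and among non-coding genes for Mir6236 at 11186 CPM (median 941), Gm55094 at 2699.6 CPM (median 203), ENSMUSG00000118642 at 927 CPM (median 131), Gm48230 at 423 CPM (median 74.3) and Gm10076 at 411 CPM (median 75.3). Of the markers, Fgf8 at 339.6 CPM (median 76.4) was the one that passed.

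Of the 10 most variable genes, pool 1 was the highest for Dnah17 at 154 CPM (median 0.573), Ogg1 at 133 CPM (median 0.637), Alg12 at 131 CPM (median 3.59), Lpar2 at 285 CPM (median 5.47), Ntpcr at 117 CPM (median 2.63), Junb at 237 CPM (median 7.82) and Prpf40b at 373 CPM (median 12.9). Pool 5 was the highest for Xylb at 124 CPM (median 1.44) and Ext2 at 4216 CPM (median 119), and pool 2 for Wnt7a at 117 CPM (median 4.33). Summed markers of other cell types passed in 3 lists, all at low levels: erythroid cells in pool 5 (0.0910 CPM, median 0), endothelium in pool 5 (4.73 CPM, median 0.883) and melanocytes in pool 2 (3.94 CPM, median 0.0421). What sets pool 1 apart was not tested.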

How the results depend on the processing

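IHC pool 1 had the fewest counts outside rRNA (13558176), which limits low genes most there, and the strand setting is unknown. None of the class shares had an adjusted p under 0.05 under any alternative. Some had an unadjusted p under 0.05. The smallest was for small and structural RNA without IHC replicate 1 (exact permutation p = 0.00866, adjusted p = 0.0693). For ribosomal protein genes with rRNA kept in the denominator it was 0.0130 (exact permutation p, adjusted p = 0.104). The difference in share between IHC and OHC pools changed sign, in percentage points, for small and structural RNA with rRNA kept in the denominator (-0.0389), without OHC replicate 3 (-0.00631) and without IHC replicate 1 (-0.148), for pseudogenes with rRNA kept (-0.00801) and without IHC replicate 1 (-0.00322), and without IHC replicate 1 for nuclear protein-coding (0.143) and histone genes (-0.00447). Each of these changes of sign lay within shares that did not pass the test.

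Leaving out 1 pool at a time, the difference in share ranged from -1.15 to 0.143 for nuclear protein-coding, 0.793 to 1.60 for mitochondrial, -0.456 to -0.128 for ribosomal protein, -0.253 to -0.114 for lncRNA, -0.00447 to 0.0193 for histone, -0.148 to 0.0597 for small and structural RNA, -0.00322 to 0.0263 for pseudogene and 0.444 to 7.54 for rRNA. The genes detected ranged from -1300 to -857, and the genes holding 50% of the counts from -123 to -68.1. Genes called ranged from 377 to 581 higher in IHC pools and from 229 to 407 higher in OHC pools, 27 to 29 of the 30 abundant genes remained, and 2 to 4 of the 10 steadiest and 3 to 6 of the 10 most variable.

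The difference in genes detected was -820.5 with 5 counts asked (exact permutation p = 0.0931). Same-numbered IHC and OHC pools did not deviate together (r from -0.029 to 0.017 over the 6 numbers), so the numbers were not taken as pairs. With a replicate block the difference in genes detected was -1082 (exact sign-flip p = 0.0938), and 528 genes were called higher in IHC and 394 in OHC pools, against 528 and 329 without it. The block moved no class share, nor the genes holding 50% of the counts, across the threshold.

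With no filter 893 and 961 genes were called higher in IHC and OHC pools, and by DESeq2 1339 and 1589. With the canonical transcript as length (chosen after seeing the data) 18 of the 30 abundant genes remained. Of the 10 steadiest, 0 remained without TMM factors. Of the 10 most variable, 4 remained by SD of log2 CPM, 6 without TMM factors, and 1 each at a mean of at least 5 and of at least 100 CPM. The cause of these changes was not tested.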
